A study of Mus musculus with 80 samples.

Results

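Of 78275 genes listed in the deposited count table of mouse liver, 9 are described here. They were chosen by name, as genes of pericentral hepatocytes driven by Wnt signalling or as parts of that signalling itself: Rspo3, Lgr5, Axin2, Rnf43, Znrf3, Tbx3, Glul, Oat and Rhbg. The rule uses names and no threshold on a measured value, though earlier results of these data were known when it was set. All 9 had enough counts to be tested. The livers came from C57BL/6J mice, an inbred strain, aged 8 to 12 weeks when bought, with no transgene or deletion in either group. After 10 days of 12 h light and 12 h darkness the mice went into constant darkness, where time is counted as circadian time (CT). Control mice kept their chow throughout, whereas fasted mice lost it at CT10. Livers were taken every 4 h from CT8 to CT44 from 2 males and 2 females of each treatment, which gave 80 libraries of polyadenylated RNA, 4 for each treatment and time. At CT8 the mice labelled fasted still had food, and from CT12 to CT44 they had been without it for 2 to 34 h. The question addressed is how these genes followed time of day and the absence of food.

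In the liver lobule, blood flows from the portal tract to the central vein, and hepatocytes differ in their tasks along the way. Endothelial cells of the central vein release Wnt2, Wnt9b and the secreted protein Rspo3. Wnt binds Frizzled and Lrp5 or Lrp6 on neighbouring hepatocytes, which stabilises beta-catenin (Ctnnb1), and beta-catenin with a factor of the TCF/LEF family turns on the pericentral programme. Rnf43 and Znrf3 are related membrane ubiquitin ligases that remove Frizzled from the surface. Rspo3, held by Lgr4 or Lgr5, takes these ligases away and so prolongs the signal. Axin2, a scaffold of the complex that degrades beta-catenin, and both ligases are themselves induced by the pathway as negative feedback. Tbx3 is a transcription factor of pericentral hepatocytes. Glul (glutamine synthetase), Oat (ornithine aminotransferase) and Rhbg (an ammonium transporter) serve the last step of ammonia removal, in which the cells around the vein capture what urea synthesis upstream has left.

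Positions are given on GRCm38 as in the GENCODE M21 annotation, whereas the submitters' processing notes name GRCm39 for the reads. Rspo3 lies at chr10:29452416-29535867 (minus strand) and Lgr5 at chr10:115450311-115587780 (minus). Axin2 lies at chr11:108920349-108950783 (plus), Rnf43 at chr11:87662722-87735539 (plus), Znrf3 at chr11:5276324-5444847 (minus) and Tbx3 at chr5:119670669-119684724 (plus). Glul lies at chr1:153899944-153909723 (plus), Oat at chr7:132557478-132576398 (minus) and Rhbg at chr3:88242874-88254709 (minus). Values are counts over whole genes. Promoter sequences of RefSeq (GRCm38.p6, 250 bases before to 50 after the start) were matched for 4 members, with 5 windows in all. The 3 shown belong to feedback genes that fell with fasting and to the member that rose most, with the 50 bases from the start of transcription onwards at the right end.
Axin2, chr11:108920099-108920398, plus strand: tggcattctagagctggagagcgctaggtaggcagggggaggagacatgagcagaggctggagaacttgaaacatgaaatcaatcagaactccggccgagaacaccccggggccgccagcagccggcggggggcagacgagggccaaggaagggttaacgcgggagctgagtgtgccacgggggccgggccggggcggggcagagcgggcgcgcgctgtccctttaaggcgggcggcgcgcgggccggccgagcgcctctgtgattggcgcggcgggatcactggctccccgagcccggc
Rnf43, chr11:87662837-87663136, plus strand: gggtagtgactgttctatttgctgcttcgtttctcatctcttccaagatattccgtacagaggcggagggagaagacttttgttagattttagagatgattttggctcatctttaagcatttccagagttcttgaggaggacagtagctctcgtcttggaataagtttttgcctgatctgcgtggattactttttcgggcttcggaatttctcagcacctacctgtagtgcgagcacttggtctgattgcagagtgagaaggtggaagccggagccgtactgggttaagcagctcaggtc
Oat, chr7:132576349-132576648, minus strand: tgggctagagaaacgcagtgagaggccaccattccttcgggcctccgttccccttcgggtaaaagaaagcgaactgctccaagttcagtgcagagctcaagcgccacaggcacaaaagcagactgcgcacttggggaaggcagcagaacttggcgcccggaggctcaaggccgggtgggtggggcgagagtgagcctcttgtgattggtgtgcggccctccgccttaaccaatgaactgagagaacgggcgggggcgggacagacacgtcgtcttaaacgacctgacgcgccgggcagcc
Both strands of each window were searched for the TCF/LEF letters CTTTGAT and CTTTGAA, the E-box CACGTG bound by clock factors, the forkhead motif GTAAACA, the D-box TTATGTAA and the cAMP response element TGACGTCA. None of the 5 windows held any of them. Among 32851 promoters of the same table, 8.65% held at least 1 of the TCF/LEF strings, 7.15% the E-box, 3.65% the forkhead motif, 0.938% the D-box and 1.79% the cAMP response element. The windows differed in base composition, with 70.0% G and C in Axin2, 61.7% in Oat and 46.7% in Rnf43.

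Total counts per library lay between 25534901 and 59927771, with a median of 42303883. Sex differed between the title and the detailed label of 40 libraries, as did treatment. Titles were followed, and Xist and Ddx3y matched their sex in 80 of 80 libraries. In the second female of control CT8 the ribosomal gene Rn18s-rs5 held 31.3% of all counts, against a median of 0.101%. Apart from the shared estimate of the spread, this library bears on the comparison at CT8, the rhythms of control livers and the sex difference of controls, which are given with and without it where a call changed. Each mouse gave 1 liver piece of about 40 mg, so that in these bulk samples fewer cells of a type and less RNA per cell cannot be told apart, and the place of a transcript in the lobule was not measured.

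Fasting lowered 5 of the 9 genes and raised 2 in the mean of CT12 to CT44. On the log2 scale Lgr5 fell by 0.89, Rnf43 by 0.83, Tbx3 by 0.45, Rhbg by 0.38 and Axin2 by 0.27, whereas Oat rose by 0.73 and Znrf3 by 0.40. Glul and Rspo3 did not pass the test. The comparison set 36 fasted against 36 control libraries with edgeR's quasi-likelihood test, fitted with separate means by treatment, time and sex, and genes were called at a Benjamini–Hochberg adjusted p under 0.05. Over the 21187 genes tested, 62.5% were called, 29.5% higher and 32.9% lower, so that 7 calls among 9 genes is a share close to that of all genes. The median difference of the 9 genes was -0.27, against -0.020 for all genes. The plot of mean fasting effects sets the 9 genes side by side.

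**Figure D1:**
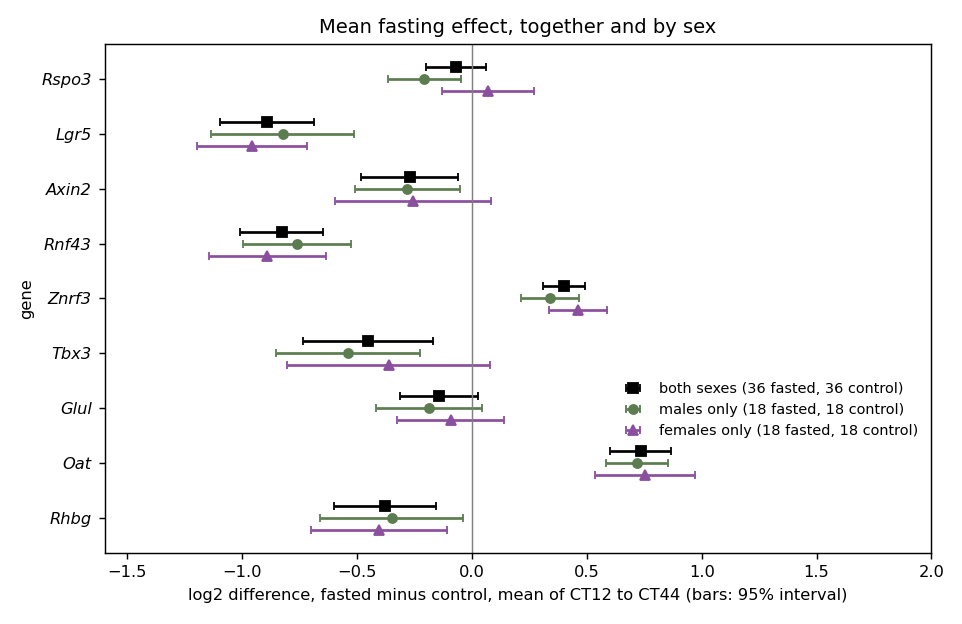
Mean fasting effect of the 9 genes, as the log2 difference between fasted and control livers over CT12 to CT44 (x axis), for both sexes (squares, 36 fasted and 36 control libraries), males (circles) and females (triangles), with bars for the 95% interval. Lgr5 and Rnf43 lie near -0.9 and -0.8, Oat and Znrf3 lie above 0, and the interval of Glul crosses 0.

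Between the genes, levels spanned a wide range. Per kilobase of annotated exon, the median of control livers was 292 CPM (counts relative to library size, scaled by TMM) for Oat and 248 for Glul. The other genes were far lower, at 5.31 for Tbx3, 4.15 for Rnf43, 1.76 for Axin2, 1.5 for Znrf3, 1.47 for Rspo3, 1.37 for Rhbg and 0.683 for Lgr5. Every pair of neighbours in this order overlapped in its range over the libraries, apart from Glul and Tbx3. In fasted livers Oat stood at 600 CPM per kilobase and Glul at 214, while Lgr5, the lowest of the 9, stood at 0.427.

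The ligand Rspo3 showed no call with fasting. Its level over CT12 to CT44 was 4.56 ± 0.833 CPM in control and 4.40 ± 1.26 CPM in fasted livers (SD, n = 36 each), a log2 difference of -0.071 with a 95% interval of -0.20 to 0.059 (adjusted p = 0.366, edgeR's quasi-likelihood test). No time separated the fasted from the control libraries. At CT44, for example, control livers held 5.33, 4.14, 6.21 and 5.16 CPM (male 1, male 2, female 1, female 2, the order used throughout) and fasted livers 4.38, 3.84, 7.60 and 5.15 CPM. The fasted group at that time spread over a wider range than the control group and enclosed it.

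Its receptor Lgr5, by contrast, fell to 0.539 of the control level. The median over CT12 to CT44 was 7.01 CPM in control livers (lowest 3.38, highest 14.6) and 4.39 CPM in fasted livers (lowest 1.44, highest 19.1). The log2 difference was -0.89 with a standard error of 0.104 (adjusted p = 3.03e-10, edgeR's quasi-likelihood test), negative at 9 of 9 times and called at CT20, CT40 and CT44, of which CT40 was lost without the first female of every group and in each sex alone. The course was not even. At CT20, after 10 h without food, control livers held 4.44, 7.84, 4.68 and 9.84 CPM and fasted livers 2.86, 1.80, 1.67 and 2.72 CPM. All 4 fasted livers lay below all 4 controls, and the log2 difference was -1.56 (standard error 0.32, adjusted p = 0.000114). At CT28 the control values were 7.94, 14.3, 11.9 and 11.5 CPM and the fasted values 4.39, 6.49, 18 and 19.1 CPM. Here the groups overlapped, with both fasted females above every control and both fasted males below, and the difference of -0.18 was not called. By CT44, control livers held 4.70, 10.7, 7.11 and 10.5 CPM and fasted livers 1.90, 1.44, 1.66 and 2.24 CPM. That gap of -2.19 (standard error 0.328, adjusted p = 5.61e-07) was the widest of the 81 pairs of gene and time.

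**Figure D2:**
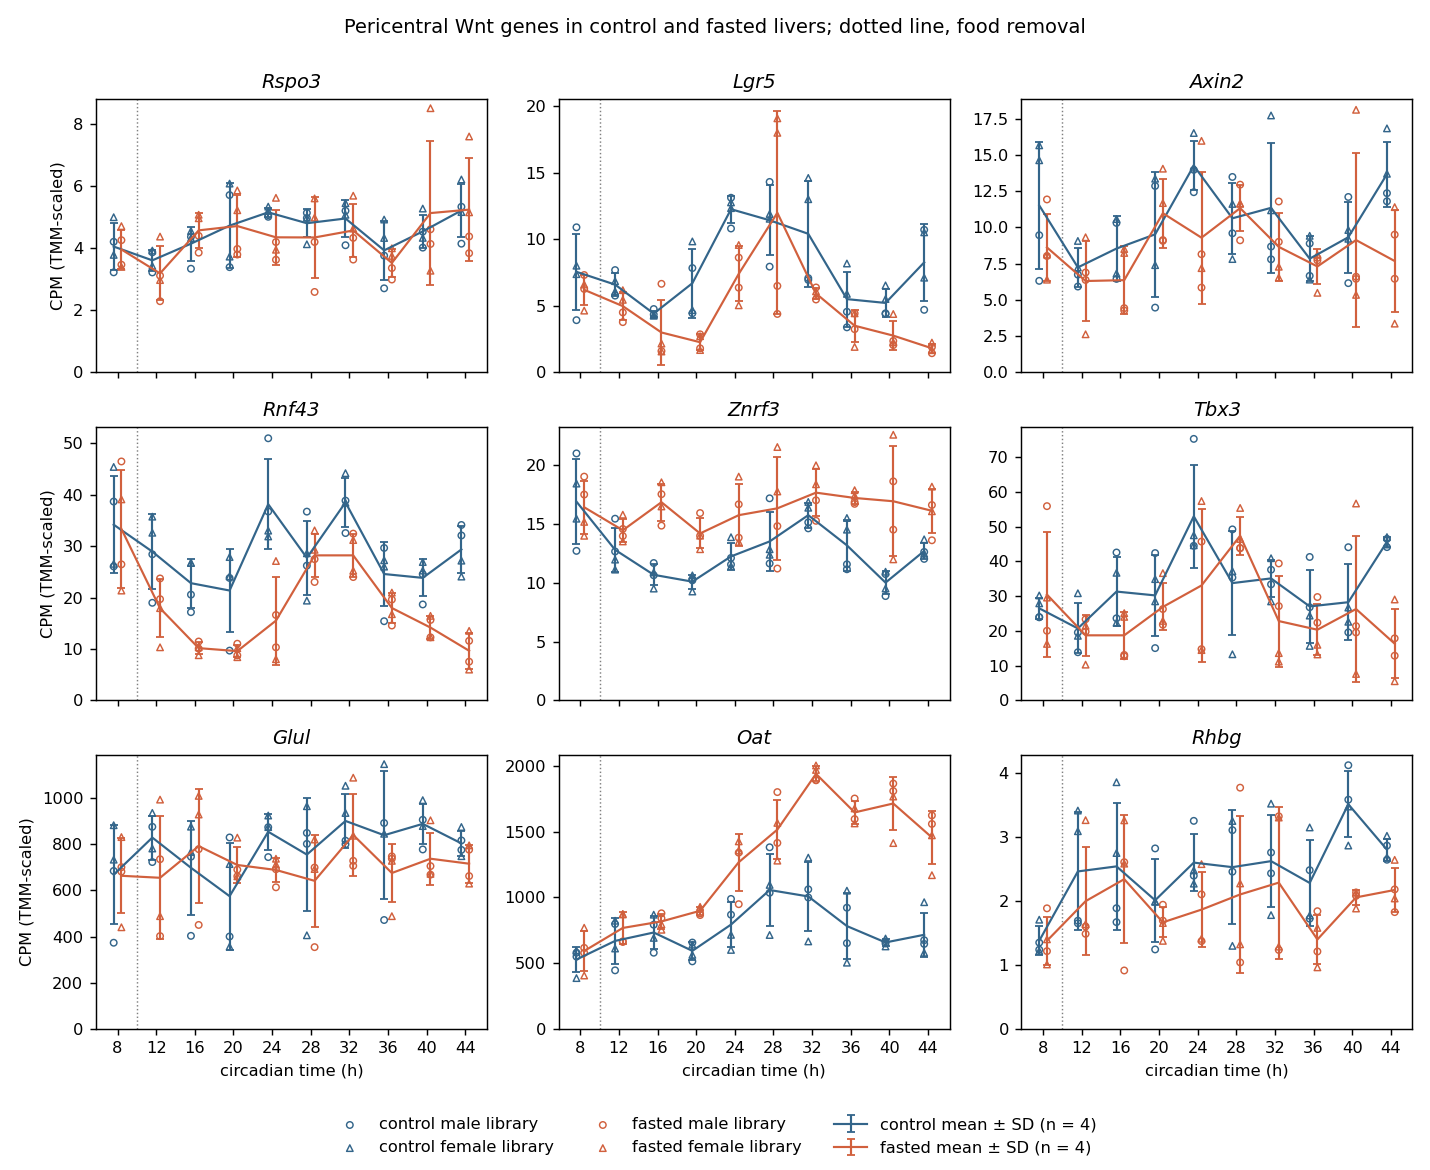
Levels of the 9 genes (y axis, TMM-scaled CPM, each panel on its own scale from 0) against circadian time (x axis, hours), with lines for the mean of 4 libraries, bars for the SD, circles for males and triangles for females; the dotted line marks food removal at CT10. The fasted means of Lgr5 and Rnf43 dip at CT20, meet the control means at CT28 and dip again by CT44, whereas that of Oat climbs to 1943 CPM at CT32.

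The pair of ligases that clear Frizzled moved in opposite directions. Rnf43 fell, from 28.4 ± 8.20 CPM in control to 16.8 ± 7.89 CPM in fasted livers (SD, n = 36 each), with a log2 difference of -0.83 (standard error 0.0919, adjusted p = 8.43e-11, edgeR's quasi-likelihood test). Znrf3 rose, from 12.3 ± 2.18 to 16.1 ± 2.54 CPM, with a difference of 0.40 (standard error 0.0464, adjusted p = 2.92e-10). The 95% intervals, -1.01 to -0.65 and 0.31 to 0.49, lie on either side of 0. Rnf43 was called lower at 5 times and Znrf3 higher at 6. Of these single-time calls, those of Rnf43 at CT44 and of Znrf3 at CT40 held under all 14 alternatives, whereas Znrf3 at CT24 (adjusted p = 0.049) was lost in 9 of 14, at CT44 (0.0468) in 8 and at CT36 (0.0282) in 5, and Rnf43 at CT40 (0.0288) in 5. The calls of Rnf43 at CT16 and CT20 were lost without the second male of every group, and those of Rnf43 at CT24 and Znrf3 at CT20 without the first.

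At CT16 the ligases already differed in opposite directions, although both calls at that time were lost in males alone. Control livers held 17.2, 20.6, 26.8 and 26.7 CPM of Rnf43 and fasted livers 11.5, 10.1, 10.3 and 8.80 CPM. For Znrf3 the control values were 11.7, 10.6, 10.9 and 9.49 CPM and the fasted values 14.8, 17.5, 16.5 and 18.5 CPM. Neither gene's groups overlapped, after 6 h without food. At CT28 fasted Rnf43, at 23.1, 27.5, 33.1 and 29.3 CPM, lay among control values of 26.2, 36.7, 28.6 and 19.4 CPM, and the log2 difference was 0.030. At CT44 it was again below every control, with 11.6, 7.55, 6.00 and 13.5 CPM against 32.1, 34.1, 24.1 and 27.2 CPM and a difference of -1.59 (standard error 0.282, adjusted p = 1.21e-05, edgeR's quasi-likelihood test). Znrf3 differed most at CT40, where fasted livers held 18.6, 14.5, 12.0 and 22.5 CPM and controls 8.86, 10.7, 10.9 and 9.50 CPM, again without overlap (log2 difference 0.75, adjusted p = 2.65e-05). The annotated gene 1110028F11Rik lies in an intron of Rnf43 on the same strand, and its own counts were 1.26% to 13.5% of those of Rnf43. It fell by 1.06 (adjusted p = 4e-09).

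The feedback scaffold Axin2 changed least among the called genes. It stood at 10.3 ± 3.36 CPM in control and 8.55 ± 3.38 CPM in fasted livers (SD, n = 36 each), a log2 difference of -0.27 (standard error 0.108, adjusted p = 0.0269, edgeR's quasi-likelihood test). CT44 was the only time called, with 11.8, 12.4, 16.8 and 13.7 CPM in controls and 9.49, 6.45, 3.36 and 11.4 CPM in fasted livers, which did not overlap. This call (adjusted p = 0.0403) was lost in 5 of 14 alternatives, among them those without the first male, the second male or the first female of every group. The mean call was lost on leaving out CT16, CT24, CT32 or CT44 (adjusted p between 0.0598 and 0.112), the second male of every group (log2 difference -0.14, adjusted p = 0.507) or all males (adjusted p = 0.209).

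Tbx3 fell from 33.9 ± 13.2 to 25.6 ± 14.3 CPM (SD, n = 36 each), a log2 difference of -0.45 with a standard error of 0.144 (adjusted p = 0.00567, edgeR's quasi-likelihood test). CT44 alone was called for this gene too, a call lost without either male of every group and in females alone. Control livers there were tightly grouped at 46.5, 44.1, 47.0 and 44.9 CPM, whereas fasted livers ranged widely below them at 17.9, 12.9, 5.53 and 29.1 CPM. At CT28 the sign was opposite, with 43.8, 43.9, 55.4 and 46.5 CPM in fasted against 35.4, 49.2, 37.2 and 13.3 CPM in control livers, groups that overlapped. Without CT44 the mean difference was -0.32 (adjusted p = 0.0559), and without the second male of every group it was -0.39 (adjusted p = 0.105). An antisense gene, Tbx3os1, overlaps Tbx3 on the opposite strand over 697 bases. Its counts were 2.42% to 89.1% of those of Tbx3 and fell by 0.68 (adjusted p = 1.06e-05). The libraries keep the strand, but whether counting used it is not given in the sources used here, so that reads of this overlap are uncertain.

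Among the metabolic genes, Glul did not pass the test. It was at 795 ± 183 CPM in control and 718 ± 158 CPM in fasted livers (SD, n = 36 each), with a log2 difference of -0.14 and a 95% interval of -0.31 to 0.028 (adjusted p = 0.153, edgeR's quasi-likelihood test). No single time was called. The nearest approach to a separation came at CT24, with 875, 745, 876 and 926 CPM in controls and 692, 614, 713 and 738 CPM in fasted livers, which did not overlap although the difference of -0.31 was not called. Glns-ps1, a pseudogene copy of Glul, was listed with 0.558% to 1.03% of the counts of Glul, and how reads were divided between the copies is not given in the sources used here. From CT12 to CT44, Glul was lowest in control CT20 female 1 (356 CPM) and, among fasted livers, in CT28 male 1 (354 CPM). Other pericentral hepatocyte genes there summed to 6131 CPM (5811 to 9342 CPM in the rest of its group) and 6703 CPM (9959 to 11330 CPM). Whether the spread of Glul follows the pericentral content of a liver piece was not tested.

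Oat, the mitochondrial enzyme that turns ornithine and alpha-ketoglutarate into glutamate and a semialdehyde, rose to 1.66 times the control level. It stood at 779 ± 223 CPM in control and 1340 ± 428 CPM in fasted livers (SD, n = 36 each), a log2 difference of 0.73 (standard error 0.067, adjusted p = 3.16e-13, edgeR's quasi-likelihood test), positive at 9 of 9 times and called at 6. The calls at CT20, CT24 and CT32 were lost without either male of every group. The rise built up. At CT16 control livers held 792, 579, 692 and 869 CPM and fasted livers 841, 879, 754 and 795 CPM. These groups still overlapped. At CT32, after 22 h without food, the values were 1000, 1062, 665 and 1304 CPM in controls and 1897, 1894, 2007 and 1973 CPM in fasted livers. By CT40 the controls stood at 666, 649, 627 and 687 CPM and the fasted livers at 1812, 1869, 1770 and 1415 CPM. There was no overlap at either time, and the difference at CT40 was 1.38 (standard error 0.204, adjusted p = 4.01e-07). Fgfr2, annotated on the same strand across the whole of Oat, had 1.12% to 17.4% of the counts of Oat and fell by 0.24 (adjusted p = 2.42e-05).

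Rhbg was the most weakly expressed by raw reads, with 29 to 180 counts per library from CT12 to CT44. It fell from 2.59 ± 0.736 to 1.98 ± 0.735 CPM (SD, n = 36 each), a log2 difference of -0.38 with a standard error of 0.113 (adjusted p = 0.00325, edgeR's quasi-likelihood test). The difference was negative at 9 of 9 times and called at none of them. At CT40 controls held 4.12, 3.58, 3.47 and 2.86 CPM and fasted livers 2.13, 2.08, 2.13 and 1.88 CPM, which did not overlap. Without the first male of every group the mean difference was -0.27 (adjusted p = 0.0977). Gm38392, on the same strand over 11330 bases, had up to 5.63% of the counts of Rhbg.

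Over the 81 pairs of gene and time, 22 were called, against 25.6% of all such pairs of the genes tested. At CT12 none of the 9 genes was called by edgeR (1 at an unadjusted p under 0.05, 0 by limma and 0 by DESeq2), where 1.6% of all genes were. At CT28 the count was again 0 (1 at an unadjusted p under 0.05, 1 by limma and 1 by DESeq2), although 21% of all genes were called. Of the 9 genes, 2 were called at CT16 and CT36, 4 at CT20 and CT40, 3 at CT24, 1 at CT32 and 6 at CT44. The shares of all genes at these times were 23.4% at CT16, 36.6% at CT20, 24.1% at CT24, 17.7% at CT32, 26.8% at CT36, 39.9% at CT40 and 39.4% at CT44. Before food removal, at CT8, none of the 9 was called by edgeR, limma or DESeq2, none had an unadjusted p under 0.05, and 1.33% of all genes were called. The fasted and control livers did not overlap at 5 times for Lgr5, Rnf43 and Oat, at 4 for Znrf3, at 2 for Rhbg, at 1 for Glul, Axin2 and Tbx3 and at 0 for Rspo3, against 21.1% of all gene and time pairs.

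**Figure D3:**
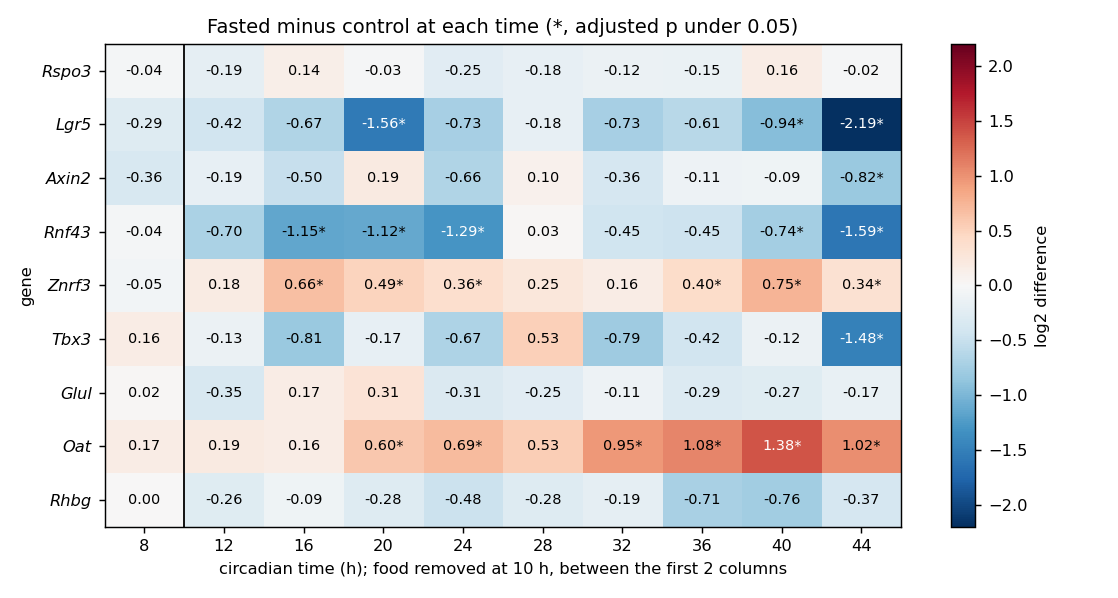
Log2 difference between fasted and control livers (colour and number) for each gene (y axis) at each circadian time (x axis, hours), from edgeR's quasi-likelihood fit, with an asterisk at an adjusted p under 0.05; the black line marks food removal. The column of CT28 holds no call, between called falls of Lgr5 and Rnf43 at CT20 and CT44.

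A linear change of the fasting effect over the fast was called for 1 of the 9 genes, against 23.6% of all genes. The difference in Oat grew by a fitted log2 value of 0.14 per 4 h (standard error 0.0259, adjusted p = 0.000102, edgeR's quasi-likelihood test). Its growth was not even, with 0.69 at CT24 but 0.53 at CT28, and 1.38 at CT40 but 1.025 at CT44. In Lgr5 the fitted change was -0.099 per 4 h, which was not called (adjusted p = 0.0693).

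In control livers 6 of the 9 genes followed a 24 h cosine, where 45.4% of 18242 genes did. Lgr5 had the deepest fitted rhythm, falling by a fitted 1.36 on the log2 scale from its peak at CT2.78 to its trough (adjusted p = 7.64e-07, edgeR's quasi-likelihood test). Tbx3 peaked at CT0.0154 with a difference of 0.90 (adjusted p = 0.00219), Rspo3 at CT0.195 with 0.42 (adjusted p = 0.00493) and Axin2 at CT1.06 with 0.77 (adjusted p = 0.00382). Rnf43 peaked later, at CT4.36 with 0.64 (adjusted p = 0.0097), and Znrf3 at CT6.42 with 0.57 (adjusted p = 5.55e-06). Peaks of these genes thus spread from subjective dawn to the middle of the subjective day, and the ligand, the scaffold and Tbx3 were fitted earlier than both ligases, an order that was not tested. The metabolic genes were not called. Glul had a fitted difference of 0.12 (adjusted p = 0.805), Rhbg of 0.36 (adjusted p = 0.306) and Oat of 0.46 (adjusted p = 0.0799), which became 0.52 (adjusted p = 0.0246) without the second female of control CT8. The call of Rnf43 was lost without the first male or the first female of every time (adjusted p = 0.0529 and 0.0568).

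In fasted livers 4 of the 9 genes were called, where 50.8% of all genes were. Of these, Lgr5, Rnf43 and Tbx3 were also called in control livers. Lgr5 swung by a fitted 2.15 (log2) and peaked at CT5.02 (adjusted p = 1.94e-06, edgeR's quasi-likelihood test), and Rnf43 by 1.62 with its peak at CT6.69 (adjusted p = 7.2e-08). Both rhythms differed from those of control livers by a test of the difference itself over CT12 to CT44, with linear time in both treatments. The adjusted p was 0.0362 for Lgr5 and 0.00244 for Rnf43, where 24% of all genes differed. On the raw scale this appeared as 2 dips, near CT20 and near CT44, with group means close to those of controls at CT28. In fasted livers each time is also a single length of the fast. A 24 h rhythm and an uneven course of the fast therefore cannot be told apart. At CT28 the fasted livers lay among the controls for Rnf43. For Lgr5 the males lay below and the females above every control, so that only the mean was near the control level. The difference for Lgr5 was lost on leaving out any 1 replicate of a sex (adjusted p between 0.0565 and 0.174), and that for Rnf43 without the second male (adjusted p = 0.0508). Tbx3 was called in fasted livers with 0.99 (adjusted p = 0.0374), a call lost without either male or the second female, and Oat with 0.63 around its rise (peak at CT6.21, adjusted p = 1.83e-05). For Oat the call turned on the linear term that only the fasted fit held: without it the fasted value was 0.51 (adjusted p = 0.129), and with it the control value was 0.50 (adjusted p = 0.0352). Znrf3 had a fitted swing of 0.14 in fasted livers (adjusted p = 0.48), but the difference from control livers missed the threshold (adjusted p = 0.065). Axin2, Rspo3, Glul and Rhbg were not called in fasted livers.

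**Figure D4:**
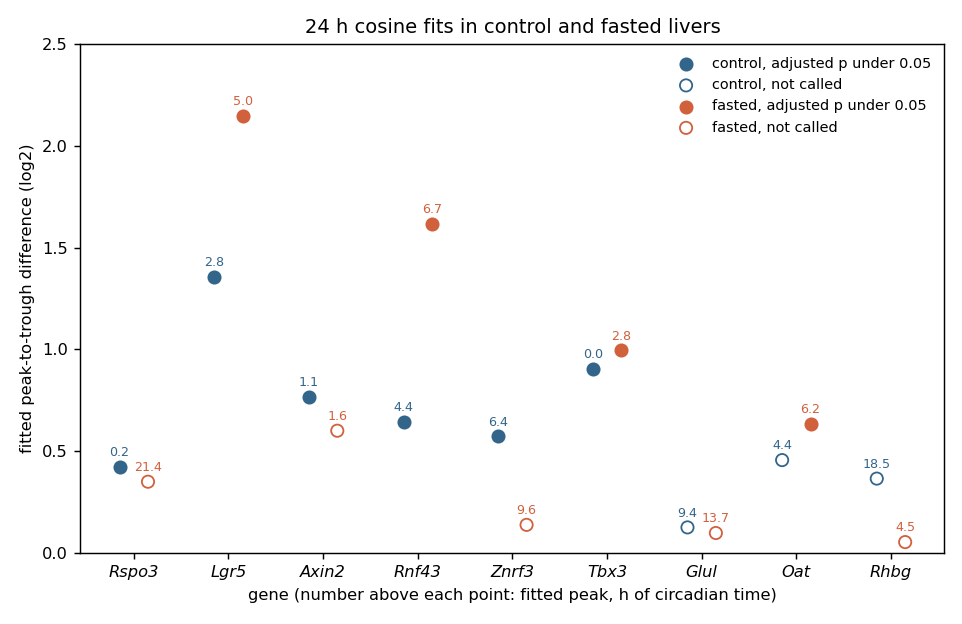
Fitted peak-to-trough difference (y axis, log2) of a 24 h cosine in control (blue, 40 libraries) and fasted livers (orange, 36 libraries) for each gene (x axis), filled where the adjusted p was under 0.05; the number above a point is the fitted peak in hours of circadian time. The fitted swings of Lgr5 and Rnf43 stand at 2.15 and 1.62 in fasted livers against 1.36 and 0.64 in controls. Only the fasted fits shown here held linear time, and the difference between rhythms was tested in a separate fit.

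Sex made no called difference to these genes. The fasting effect of females minus that of males was called for 0 of 9 by edgeR (1 at an unadjusted p under 0.05, 0 by limma and 0 by DESeq2), where 12.4% of all genes were called. The difference nearest to a call was that of Rspo3, at 0.27 (unadjusted p = 0.0442, adjusted p = 0.176, edgeR's quasi-likelihood test), with an effect of -0.21 in males (adjusted p = 0.0349) and 0.068 in females (adjusted p = 0.598). In control livers females and males were not told apart for any of the 9 by edgeR (1 at an unadjusted p under 0.05, 1 by limma and 0 by DESeq2), although 39.2% of all genes were. Lgr5 was the gene called by limma, with a difference of 0.30 (adjusted p = 0.0498), against 0.27 (adjusted p = 0.105) with edgeR. Rhbg lost its mean call in males alone (-0.35, adjusted p = 0.0678), and Axin2 and Tbx3 lost theirs in females alone (adjusted p = 0.209 and 0.174), while Lgr5, Rnf43, Znrf3 and Oat were called in each sex.

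Exon bins, counted separately by the authors, gave a readout of splicing that the choice of genes had not used. Usage changed with fasting for 2 of 9 genes, against 14.7% of 13728 genes tested. Each change rested on 1 bin of very low share. Bin 11 of Oat held 0.0325% ± 0.0187 of the gene's bin counts in control and 0.0477% ± 0.0178 in fasted livers (SD, n = 36 each), a change of 0.46 on the log2 scale relative to the gene (gene adjusted p = 4.94e-08, Simes' method on edgeR's diffSpliceDGE). Bin 8 of Glul held 0.142% ± 0.0269 and 0.182% ± 0.0417, a change of 0.25 (gene adjusted p = 0.0107). Limma's diffSplice called neither gene (adjusted p = 0.221 and 0.609). The call of Oat was lost when bins needed at least 10 counts in every library, and that of Glul without CT40 (adjusted p = 0.208) or without the second male, the first female or the second female of every time (adjusted p from 0.144 to 0.293). The bins that carry the bulk of Glul, such as bin 16 with 29.0% in control and 29.1% in fasted livers, were not called.

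Across the 80 libraries, the genes whose log2 levels ran most like those of a member were sought among 11575 others. These correlations describe libraries that share times, treatment and depth, and carry no test. Glul ran most like its own copy Glns-ps1 (r = 0.946), then Slc16a11 (0.783) and the ligand Wnt2 (0.782). Axin2 ran most like Tbx3 (0.823), another of the 9, followed by Ccn1 (0.677) and Stat5a (0.635). Closest to Lgr5 stood Aagab (0.796), Lhfpl2 (0.766) and the endothelial tight-junction gene Cldn5 (0.763), with Rnf43 in place 15 (0.728). For Lgr5 and Znrf3 the value was 0.00106. Oat ran most like Lhpp (0.891), a pericentral gene, and the proteasome genes Psmb4 (0.832) and Psmc1 (0.831), and Rspo3 most like Amotl1 (0.673), Hgf (0.673) and Plpp1 (0.644).

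Upstream of the 9 genes, most Wnt ligands and secretion factors were not called. Of 12 tested, 1 rose and 3 fell, with a median of -0.18. The central vein ligands were not called, with log2 differences of 0.054 for Wnt2 and -0.095 for Wnt9b (adjusted p = 0.708 and 0.531, edgeR's quasi-likelihood test). Wls, the carrier that brings Wnt proteins to the surface, fell by 0.21, Wnt4 by 0.37 and Wnt5a by 0.28, whereas Wnt11 rose by 1.47 from 0.115 ± 0.101 to 0.584 ± 1.30 CPM (SD, n = 36 each). Wnt11 thus had very few reads in control livers, and its SD in fasted livers exceeded its mean. Of 15 receptors and co-receptors, 6 rose and 5 fell (median -0.0145), among them the co-receptors Lrp6 (up by 0.39) and Lrp5 (up by 0.32). Of the receptors that bind Wnt outside the Frizzled family, Ryk rose by 0.34, whereas Ror1 had a difference of -0.53 and fell. The value for Lgr4, the relative of Lgr5, was -0.014 and was not called.

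Inside the cell, 12 of 24 transducers rose and 8 fell (median 0.11). Gsk3a, a kinase of the degradation complex, rose by 0.47 (adjusted p = 3.05e-24, edgeR's quasi-likelihood test), while Ctnnb1 fell by 0.27 (adjusted p = 2.72e-14) and Dvl2, which relays the receptor signal, by 0.52. Ctnnbip1, an inhibitor that binds beta-catenin, also fell by 0.52. Tcf7l2, the main liver factor of the TCF/LEF family, was at 0.087 and was not called. Of 15 other inhibitors and targets, 3 rose and 6 fell (median -0.20). Ccnd1, a cyclin that drives entry into the cell cycle, fell by 1.32 (adjusted p = 1.98e-15) and the feedback inhibitor Nkd1 by 0.66 (adjusted p = 1.9e-12), both negative at 9 of 9 times, and Tnfrsf19, a receptor of the TNF family, fell by 1.01, whereas Dkk3 rose by 0.56. These shares stand beside 29.5% higher and 32.9% lower among all genes.

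The plot of gene lists shows the 9 genes next to other genes of the lobule. Of 16 other pericentral hepatocyte genes, 10 fell and 4 rose, with a median of -0.81. Their summed level went the other way, with a median of 9460 CPM in control and 12000 CPM in fasted livers. Cyp2e1, which rose, held a large part of that sum, at 4820 ± 1360 CPM in control and 8140 ± 2440 CPM in fasted livers (SD, n = 36 each). Cyp1a2, a cytochrome P450 of drug and hormone oxidation, fell by 1.62, Cyp2c29 by 0.90 and Gulo, the last enzyme of vitamin C synthesis, by 0.78. Lhpp, a phosphatase, rose by 1.01, and like Oat it was higher at 9 of 9 times. Of 16 periportal genes, 10 rose and 4 fell, with a median of 0.33. Those with the smallest p were Pck1 of gluconeogenesis (1.80), the urea cycle enzymes Asl (1.15) and Arg1 (0.84), and Hsd17b13 (0.88). Named after their values were seen, Tat of tyrosine breakdown rose by 1.03, and the 4 that fell were Cdh1 (-1.10), Aldh1b1 (-0.94), Otc of the urea cycle (-0.59) and Cyp2f2 (-0.59). Among 19 genes that handle ammonia, glutamine and ornithine, 7 rose and 10 fell (median -0.15). The transporters Slc7a2 (1.4), Slc38a2 (0.97) and Slc38a4 (0.53) rose, as did Arg1, which makes the ornithine that Oat consumes. Among those that fell, named after their values were seen, were the glutamine transporter Slc38a3 (-0.35), Otc, which also consumes ornithine (-0.59), the glutamate dehydrogenase Glud1 (-0.38) and Aldh4a1 (-0.56), which oxidises the semialdehyde that Oat makes.

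**Figure D5:**
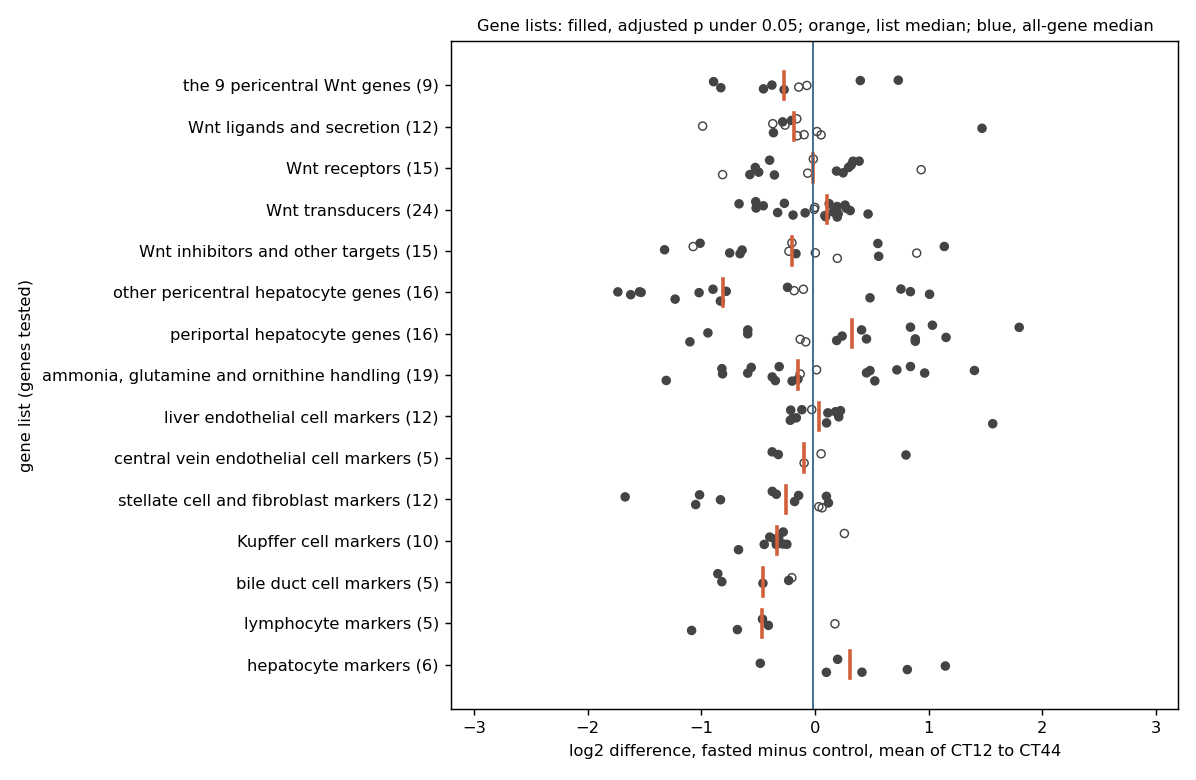
Log2 difference between fasted and control livers over CT12 to CT44 (x axis) for the genes of each list (y axis, number tested in brackets), filled where the adjusted p was under 0.05, with an orange bar at the median of the list and a blue line at the median of all genes (-0.020). Other pericentral genes centre on -0.81 and periportal genes on 0.33, with the 9 genes at -0.27.

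The cell types that make Rspo3 and the Wnt ligands were followed by their markers. Of 5 central vein endothelial markers, Thbd rose by 0.80 and Kit and Cdh13 fell by 0.38 and 0.32, with Wnt2 and Wnt9b not called. Their summed level ranged from 9.01 to 29.4 CPM in control and from 9.66 to 40.7 CPM in fasted livers. Of 12 liver endothelial markers, 6 rose and 5 fell (median 0.037), with summed levels of 513 to 754 and 524 to 864 CPM. Lyve1, a hyaluronan receptor, rose by 1.57 and the scavenger receptor Stab1 by 0.18, whereas the VEGF receptor Kdr fell by 0.16 and the junction protein Cdh5 by 0.21.

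Markers of stellate cells, Kupffer cells, bile ducts and lymphocytes mostly fell. Of 12 stellate cell and fibroblast markers 2 rose and 8 fell, with the collagens Col3a1 (-1.67) and Col1a1 (-1.05), Ngfr (-1.02) and the retinol-esterifying enzyme Lrat (-0.83) foremost by p. Of 10 Kupffer cell markers 9 fell, among them Adgre1 (-0.67), Csf1r (-0.35), Clec4f (-0.34) and Vsig4 (-0.32). Of 5 bile duct markers 4 fell, namely Spp1 (-0.86), Krt19 (-0.82), Krt7 (-0.46) and Epcam (-0.23), and of 5 lymphocyte markers 4 fell, among them Ms4a1 (-1.09), Cd79a (-0.46) and Ptprc (-0.41). Summed Kupffer levels ranged from 342 to 1120 CPM in control and 261 to 736 CPM in fasted livers, summed stellate levels from 372 to 672 and 330 to 709 CPM, summed bile duct levels from 24.6 to 66.0 and 6.78 to 50.3 CPM, and summed lymphocyte levels from 10.2 to 46.3 and 8.55 to 28.5 CPM. No marker of these lists was at 0 in all libraries. Of 6 hepatocyte markers tested, 5 rose, among them Tdo2 (1.15), Apoa1 (0.81) and Hnf4a (0.41), and Ttr fell (-0.48), with summed levels of 63700 to 111000 and 77200 to 131000 CPM, as the labelled tissue has them. The part of these shifts in the falls of Lgr5, Rnf43, Tbx3, Rhbg and Axin2 was not tested.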

How the data were processed

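Liver pieces of about 40 mg gave polyadenylated, stranded libraries read for 76 cycles from both ends. The authors deposited raw counts per gene without normalization, raw counts per exon bin, and a normalized signal that was not used here. The submitters' processing notes name Trimmomatic, HISAT2, DESeq2 and GRCm39; the counting program and its strand setting are not given in the sources used here. Versions of some gene identifiers differ between both count tables, so that bins were matched by identifier without version. Exon table rows without an exon name held between 8.28% and 25.9% of a column and were left out.

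Libraries were grouped by title. The article is a review without methods for these data, and tests follow the usual practice for counts. In R 4.3.3 with edgeR 4.0.16, genes of low count were removed by filterByExpr, libraries were scaled by TMM, a dispersion trend was estimated, and the quasi-likelihood test was fitted with separate means by treatment, time and sex. P-values were adjusted over all genes tested and called under 0.05. Rhythms used a cosine and sine of 24 h with sex, plus linear time in fasted livers. The difference between rhythms was tested in a separate fit of CT12 to CT44, with linear time in both treatments. Exon usage used diffSpliceDGE with Simes' method per gene, with fasted CT40 as 1 mean without sex, since 3 of its exon columns were matched best by another library of that group. CPM are scaled by TMM, and log2 CPM for correlations have a prior count of 2. Intervals are 95% from the standard error. The gene-level fits and the exon usage test were each run on simulated data with 200 changed genes, a smaller share than was called in the data. Other steps were not simulated.

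The 9 genes and the 14 gene lists were chosen with earlier results of these data known. From each list the up to 4 tested genes with the smallest p were named, with Wnt2, Wnt9b, Lgr4, Ctnnb1 and Tcf7l2, and a few more after their values were seen, while 1 gene is not reported here, and for 5 of the 9 genes the 3 genes most like them among those whose log2 CPM averaged 1 or more. P-values measure the spread between mice, of which 2 stand behind each treatment, time and sex. Counts alone did not set the precision. Glul, with at least 11928 counts in a library from CT12 to CT44, had a standard error of 0.087 in the mean effect. That of Rspo3, with at most 290 counts, was 0.0663. No pair of replicates agreed within sampling noise. Alternatives were other scalings, filters and tools (DESeq2 1.42.0, limma 3.58.1), single sexes, a replicate block, and fits without 1 replicate or 1 time.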

Additional observations from a re-analysis of the deposited data

Results flagged for a closer look

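Of 180 groups of 4 libraries, 8 held 1 library apart from the other three by Dixon's ratio at the 95% level, where chance alone gives about 9. The groups are not independent, since all 9 genes were read in the same libraries. In fasted livers, Glul of the second female at CT36 was at 488 CPM against 729 to 748 CPM in the others (ratio 0.938), and Axin2 of the first female at CT36 at 5.48 CPM against 7.72 to 8.10 CPM (0.877). Oat of the second male at fasted CT24 was at 949 CPM against 1340 to 1430 CPM (0.848), and Rhbg of the first female at fasted CT12 at 3.26 CPM against 1.48 to 1.63 CPM (0.879). In control livers, Tbx3 of the first male at CT24 was at 75.3 CPM against 44.5 to 47.5 CPM (0.874), and Rnf43 of the first male at CT20 at 9.70 CPM against 23.8 to 27.9 CPM (0.851). Rspo3 of the first male at control CT16 was at 3.34 CPM against 4.32 to 4.55 CPM (0.835), and of the second female at control CT28 at 4.12 CPM against 4.97 to 5.14 CPM (0.852). The library of Rnf43 at CT20 lay in the range of the fasted livers of that time (8.42 to 11.0 CPM). Some of the flagged libraries were also low in other pericentral hepatocyte genes. Summed, these stood at 6169 CPM in fasted CT36 female 2, against 12650 to 15160 CPM in the rest of its group. In control CT28 female 2 they stood at 5725 CPM, against 8859 to 9928 CPM. Control CT16 male 1 stood at 8021 CPM, against 9779 to 11350 CPM, and control CT20 male 1 at 5811 CPM, against 6131 to 9342 CPM. Fasted CT24 male 2, flagged for low Oat, was not the lowest, at 9545 CPM against 7846 to 11070 CPM. Fasted CT12 female 1, flagged for high Rhbg, stood at 13150 CPM, against 7688 to 13390 CPM. A difference shared by genes of 1 liver piece was not tested.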

How the results depend on the processing

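The 7 calls of the mean fasting effect became 5 to 7 without 1 replicate of a sex, and the calls of Lgr5, Rnf43, Znrf3 and Oat were kept under all 23 alternatives of that test, while Axin2 lost its call in 6 of 23, Tbx3 in 3 and Rhbg in 2. The 22 called pairs of gene and time became 11 to 20 without 1 replicate of a sex, 23 without the second female of control CT8, 13 in males only, 14 in females only and 37 with no filter on low counts. With no filter the called trends were 3 and the called sex differences in controls 4, against 1 and 0, and Glul passed the mean test (adjusted p = 0.00386, edgeR's quasi-likelihood test); the cause was not tested. In females only no trend was called (0), 2 genes kept a control rhythm and 1 gene a different rhythm. The 2 different rhythms became 0 to 1 without 1 replicate of a sex. Limma called 1 sex difference in controls. Of the 2 exon usage calls, 0 were left with limma's diffSplice, 1 with at least 10 counts in every library, 1 without CT40 and 1 to 2 without 1 replicate of a sex. The mean effect of Rspo3, which was not called, was 0.068 in females only, the 1 reversal among 1061 values of single genes, of which 949 kept their side of the threshold, 95 lost a call and 16 gained one.

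Replicate numbers are shared between groups. In 20 pairs of equally numbered libraries of both treatments the correlation of deviations lay between -0.154 and 0.499, over 0.1 in 5, and 10 of the 20 pairs correlated better with their own number, so that the numbers were not taken to pair mice. With a replicate block 7 genes kept a mean effect, 21 pairs of gene and time were called and 2 genes had changed exon usage, and no other count changed. Counts were lowest for Rhbg, Lgr5 and Rspo3, with as few as 29, 49 and 68 in a library from CT12 to CT44. The effect of depth on their precision was not tested.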

Other observations

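Pericentral hepatocyte genes outside the 9 did not move as a block either, as genes named here after their values were seen show. Of the 4 that rose, Lhpp is given above, and the others were Cyp2e1, a cytochrome P450 that oxidises ethanol (0.76, adjusted p = 3.73e-11, edgeR's quasi-likelihood test), Nr1i3, the nuclear receptor CAR (0.84, adjusted p = 2.01e-09), and Slc1a2, a glutamate transporter (0.48, adjusted p = 2.03e-12). The deepest falls of that list were those of Cyp7a1, the rate-limiting enzyme of bile acid synthesis (-1.74, adjusted p = 3.58e-10), Cyp1a2 (-1.62), Rgn (-1.54, adjusted p = 2.32e-16) and Slc1a4, a transporter of neutral amino acids (-1.53, adjusted p = 1.43e-14).

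Over the 80 libraries, log2 levels of Rnf43 and Znrf3 correlated at r = -0.0895 and those of Rnf43 and Lgr5 at r = 0.728, while Rspo3 and Lgr5 stood at r = 0.156. These values describe libraries that share times and treatment and carry no test. At CT28, fasted females held more Lgr5 than any control and fasted males less than any control, a contrast at a single time that was not tested.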
